A study of Rattus norvegicus with 2 samples.

Results

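Some HMGB2 peaks of resting rat heart muscle cells lay in close groups on the chromosomes, and these groups are described here together with what was found at the same places after phenylephrine. A group, called a chain below, is a run of at least 4 basal peaks in which each peak follows the last after a gap of at most 10 kb. On chromosomes 1 to 20 the basal list held 42482 peaks, and 3833 of them, 9.02%, formed 819 chains. The other 38649 basal peaks were in no chain. Of these, 22837 stood alone and 15812 were in runs of 2 or 3. The chains were chosen by the positions of the basal peaks, so the number, gaps, widths and scores of these peaks are given as a description. The phenylephrine list does not enter the rule for a chain, but the rule was set with earlier results of these data known. Some of the chains named below were picked by their phenylephrine peaks.

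The data are 2 libraries of chromatin immunoprecipitation followed by sequencing (ChIP-seq) against HMGB2, made from primary ventricular myocytes of Sprague Dawley rats of 1 day of age. The basal library came from cells with no treatment. The phenylephrine library came from cells given 10 µM phenylephrine for 48 h, and no matching time is stated for the basal cells. In both groups the cells were plated for 24 h in serum, moved to medium with an insulin, transferrin and selenite supplement and fixed in formaldehyde. Each condition has 1 library. Cultures could therefore not be compared with each other, the treatment could not be tested, and every difference given here is one between 2 lists of peaks. Peak lists cannot show how pure the myocyte cultures were.

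HMGB2 is a small chromatin protein with a pair of HMG boxes, folds that grip the minor groove of DNA and bend it with little preference for sequence. The series title sets it beside CTCF, the zinc finger protein that marks the boundaries of chromatin loops. Phenylephrine stimulates alpha-adrenergic receptors and makes cultured neonatal myocytes grow in size and change their gene programme, a common model of cardiac hypertrophy.

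The chains were mostly short, and a few were long. They held 4 peaks in 512 cases, 5 to 7 peaks in 278 and at least 8 peaks in 29, and the longest run had 18. The median span, from the start of the first to the end of the last peak, was 24.5 kb (95% interval 23.8 to 25.0), and spans ran from 7.17 to 105 kb. Gaps between neighbouring peaks of a chain had a median of 5.40 kb, and 322 of the 3014 gaps, 10.7%, were under 1 kb. Basal peaks filled 26.1% of the 21.3 Mb of span, so most of a chain was sequence without a basal call. The spans made up 0.833% of the autosomes. Just outside the rule were 1582 runs of 3 peaks. The basal list had 1139 gaps of 9 to 10 kb and 1090 gaps of 10 to 11 kb, so the distance rule does not follow a break in the spacing.

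**Figure D1:**
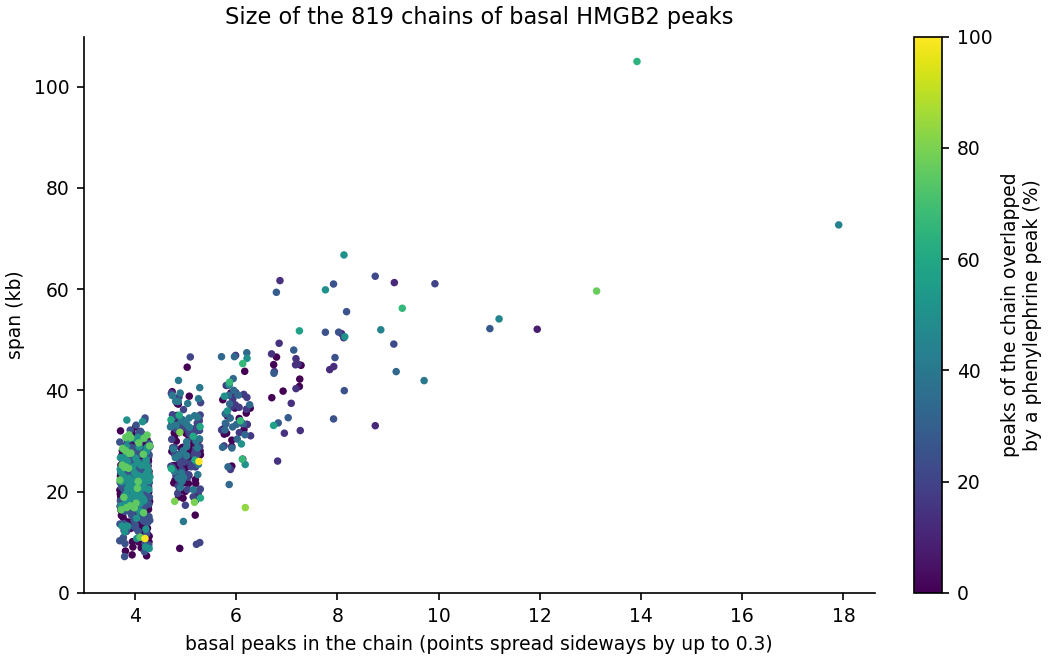
Each point is 1 of the 819 chains, with the number of basal peaks on the x axis (spread sideways for view), the span in kb on the y axis, and the share of its peaks overlapped by a phenylephrine peak as colour. Most chains have 4 or 5 peaks and span less than 40 kb, and the longest run of 18 peaks is not the widest, which has 14 peaks over 105 kb.

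Pooled over the autosomes, peaks in chains scored slightly higher and were wider than the other basal peaks. The score is the authors' own value for each peak, from 50 upwards, and is used only to rank peaks within a list. Its median was 80.2 (78.4 to 81.5) in chains and 76.2 (75.7 to 76.6) outside them. By chromosome the order varied. The median in chains was below that of the other peaks on chromosomes 3, 5, 7, 8, 11, 14 and 19, and above it on the rest. The excess was largest on chromosome 16, with 98.6 in chains and 78.2 outside. The median width was 1214 bp (1196 to 1238) and 1104 bp (1099 to 1110). A width of 2 kb or more was found for 16.5% of chain peaks and 11.0% of the others. The very top of the basal list lay in chains more often than the list as a whole. Of the 425 peaks in the top 1% of scores, 91 were in chains, 21.4%, against 9.02% of all peaks. A single stretch of chromosome 16, described below, held 22 of the 425, and the share without it was not computed.

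Within a chain the scores were uneven. The highest peak of a chain had a median score of 158, and the median ratio of the highest score to the middle score of the same chain was 1.77. In 658 chains the highest peak reached 100, in 161 all peaks stayed under 100, and in 20 every peak reached 100. Of all chain peaks 33.9% scored 100 or more, and of the peaks in no chain 32.1%. No sets of peaks were formed outside chains. Whether the spread of scores within a chain is particular to chains was therefore not tested.

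The share of basal peaks in chains was highest on chromosomes 16, 12, 10 and 20. Chains took 17.3% of the basal peaks of chromosome 16, 15.3% of chromosome 12, 14.5% of chromosome 10 and 12.8% of chromosome 20. At the other end were chromosomes 11, 18 and 2, with 5.45%, 5.65% and 5.80%. By length of chromosome the order differed, with 94.1 chains per 100 Mb on chromosome 12, 79.5 on chromosome 10, 58.0 on chromosome 20 and 48.8 on chromosome 16. By number chromosome 1 led with 99 chains, against 44 on chromosome 16. Chromosomes 12, 10 and 20 also had the most basal peaks per Mb of all autosomes, at 28.0, 26.4 and 21.7. Chromosome 16 had 15.4 basal peaks per Mb, and 11 of the other autosomes had more. Of its 240 chain peaks, 81 lay in a single stretch described below, which raises its share.

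About 1 chain peak in 5 was also called after phenylephrine, close to the share over all autosomes. A basal peak is called kept when a phenylephrine peak overlaps it by at least 1 bp. Of the 3833 chain peaks 848 were kept, 22.1% (Wilson 95% interval 20.8 to 23.5%), beside a background of 19.7% of all autosomal basal peaks. Of the peaks in no chain 7522 were kept, 19.5% (19.1 to 19.9%). Single peaks were kept in 19.3% of cases and peaks in runs of 2 or 3 in 19.7%. The difference between chain peaks and peaks in no chain was 2.66 percentage points (Newcombe 95% interval 1.32 to 4.06). These intervals cover counting error over peaks and no error between cultures, and neighbouring peaks are not independent, so they are too narrow.

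The difference was smaller, and its interval included 0, against peaks close to the chains. Peaks in no chain that lay in the same 1 Mb bins as chains were kept in 21.8% of cases (21.2 to 22.5%, 3099 of 14196), and those in bins without a chain in 18.1% (17.6 to 18.6%). Chain peaks exceeded their neighbours of the same bins by 0.29 points, with an interval from -1.16 to 1.79. With every peak of both lists set to 600 bp and the chains formed anew, which gave 661 chains, the difference to all other peaks was 1.10 points (-0.27 to 2.53). With a gap of at most 5 kb, which leaves 115 chains, it was 1.92 points (-1.53 to 5.82).

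The kept share rose with the score of the peak, in chains and outside them. For this the autosomal basal peaks were ranked by score and divided into 4 equal parts. In the lowest part, with scores of 50 to 59.9, 12.6% of chain peaks (10.5 to 15.0%) and 7.49% of peaks in no chain (6.99 to 8.03%) were kept. The peaks in no chain of the same bins stood between, at 9.03% (8.10 to 10.1%). In the second part the shares were 13.6% in chains and 10.6% outside, and 12.9% outside in the same bins. The third part had 16.1% (14.0 to 18.5%) in chains and 17.5% (16.7 to 18.2%) outside. In the top part, with scores of at least 117.8, 43.2% of chain peaks (40.3 to 46.3%) and 42.7% of the others (41.7 to 43.7%) were kept. Chain peaks stood above the others by 5.13 points (2.98 to 7.60) in the lowest part and 3.09 points (0.95 to 5.51) in the second. In the third and top parts the differences were -1.35 (-3.62 to 1.16) and 0.53 (-2.61 to 3.71). Against the same bins the lowest part still differed by 3.59 points (1.27 to 6.18), and the second by 0.73 (-1.63 to 3.31). In the third part chain peaks lay below their neighbours, with a difference of -2.99 (-5.49 to -0.30), and in the top part it was -0.093 (-3.46 to 3.31).

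**Figure D2:**
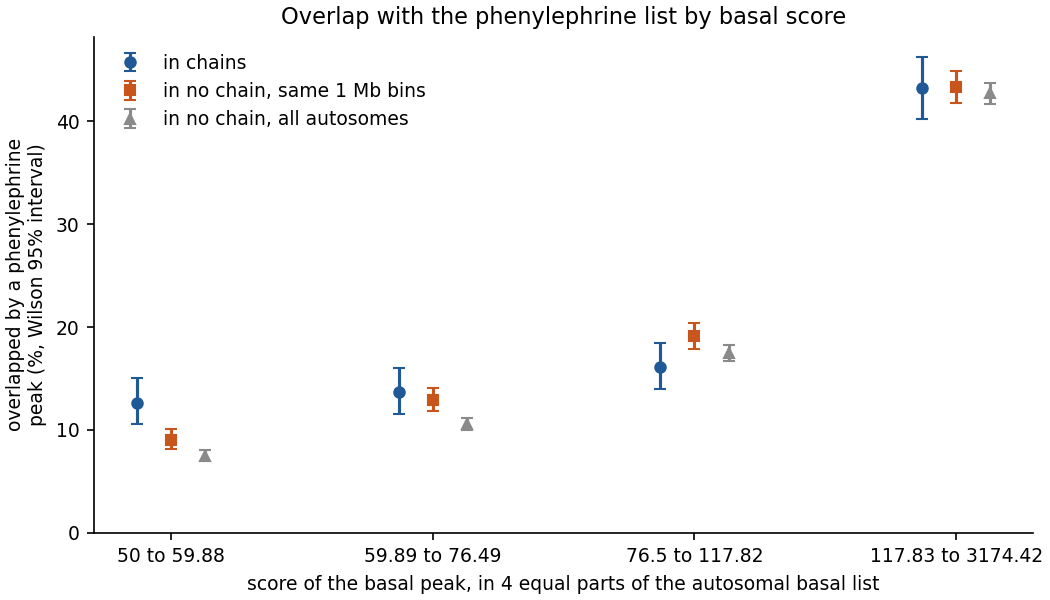
Share of basal peaks overlapped by a phenylephrine peak (y axis, percent, Wilson 95% intervals) in 4 equal parts of the basal list by score (x axis), for peaks in chains, peaks in no chain of the same 1 Mb bins and all peaks in no chain. All 3 classes rise from at most 12.6% in the lowest part to about 43% in the top part, and chain peaks stand above both other classes in the lowest part.

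The kept share also rose with the width of the peak. Among the narrowest 4th of basal peaks, up to 893 bp, 12.0% of chain peaks (9.83 to 14.6%) and 7.21% of the others (6.72 to 7.73%) were kept. Among the broadest, of at least 1521 bp, the order turned, with 34.8% (32.2 to 37.4%) in chains and 38.4% (37.4 to 39.4%) outside. This is a difference of -3.61 points (-6.38 to -0.75).

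When both lists were held to scores of at least 100 and the basal peaks were chained again, 46 chains of 209 peaks remained, and the difference was larger. Of these strong chain peaks 27.3% (21.7 to 33.7%) overlapped a strong phenylephrine peak, against 9.86% (9.37 to 10.4%) of strong basal peaks in no chain and a background of 10.1%. A single region of chromosome 16, described below, held 10 of the 46 chains. Without it the share was 22.1% (16.3 to 29.3%) against 9.81%, a difference of 12.3 points (6.42 to 19.5). These strong peaks were not matched by score or by 1 Mb bin. The part of score in the difference was not tested. In the chains of the main rule, peaks in the top part by score differed from the others by 0.53 points (-2.61 to 3.71). Any phenylephrine peak counted there. With the chains left as they were and only the phenylephrine list held to a score of 100, 5.14% of chain peaks and 3.88% of the others were kept, beside a background of 3.99%.

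Other rules of overlap gave the same order. A phenylephrine peak within 1 kb was found for 28.1% of chain peaks and 24.2% of the others, with a background of 24.5%. An overlap of at least 50% of both peaks was met by 9.55% and 8.05%, with a background of 8.19%.

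By chain, at least 1 peak was kept in 525 of the 819, 64.1% (60.8 to 67.3%), beside the background of 19.7% for a single autosomal basal peak. A chain has several peaks that could be kept, so this count depends on its length, and it was 53.4% with runs of 3 included and 70.4% for runs of at least 5. It says nothing particular about chains. Exactly 1 was kept in 308 chains and 2 or more in 217. At least 50% of the peaks were kept in 135 chains, 16.5%. Every peak was kept in 2 chains, and no peak in 294. In 92 of those 294 the phenylephrine list had a peak in the gaps only, and in the remaining 202 chains, 24.7% (21.8 to 27.7%), it had none anywhere in the span.

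The strongest peak of a chain was the one most often kept. It was kept in 296 of 819 chains, 36.1% (32.9 to 39.5%). The next by score was kept in 23.1% (20.3 to 26.1%), the third in 17.8% (15.4 to 20.6%) and those below in 15.8% (13.9 to 17.8%). The background was 19.7% of all autosomal basal peaks. Outside chains the kept share also rose with score, from 7.49% in the lowest part to 42.7% in the top part. This order is therefore not particular to chains, and rank in the chain was not tested apart from score. Of the 308 chains with a single kept peak, 131 kept the strongest. End peaks of a chain were kept in 22.8% and inner peaks in 21.6%, a difference of 1.13 points (-1.51 to 3.81). A kept peak was followed by another kept peak in 173 of 658 cases, 26.3% (23.1 to 29.8%). A peak that was not kept was followed by a kept one in 492 of 2356, 20.9% (19.3 to 22.6%). These counts pool all chains, whose kept shares differ, and were not computed without the region of chromosome 16. Whether neighbours within a chain are kept together was therefore not tested.

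Where a chain peak was kept, the phenylephrine peak covered about as much of it as at other sites. The phenylephrine list covered a median of 47.4% (44.9 to 48.9%) of a kept chain peak and 46.3% (45.7 to 46.9%) of a kept peak in no chain. The midpoints of the partners lay 244 bp (228 to 271) and 250 bp (243 to 259) apart at the median. The median score of the partner within the phenylephrine list was 71.9 (70.2 to 74.7) for chain peaks and 70.9 (70.2 to 71.7) for the others. These intervals overlap in all 3 measures.

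Phenylephrine peaks in the spans sat mostly on the basal peaks. The spans were overlapped by 1175 phenylephrine peaks, and 871 of these, 74.1% (71.5 to 76.6%), overlapped a basal peak, beside a background of 20.8% of all autosomal phenylephrine peaks. Spans are built from basal peaks, which alone raises this share. Counted by midpoint, the footprints of the chain peaks had 14.8 phenylephrine peaks per 100 kb (exact Poisson 95% interval 13.8 to 15.9), and those of basal peaks in no chain had 14.3 (14.0 to 14.7). The gaps inside the chains had 2.17 (1.94 to 2.41). The sequence free of basal peaks in the 50 kb to either side of the chains had 2.27 (2.16 to 2.38). The autosomes outside basal peaks had 1.34 (1.33 to 1.36). The intervals of the gaps and of the flanks overlap, and both lie above that of the autosomes. Sequence where no peak can be called was not taken out of the autosomes, and its part in this difference was not tested. The 304 phenylephrine peaks that touched a span but no basal peak had a median score of 61.0 in their list, and those on a basal peak of a chain had 71.3.

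**Figure D3:**
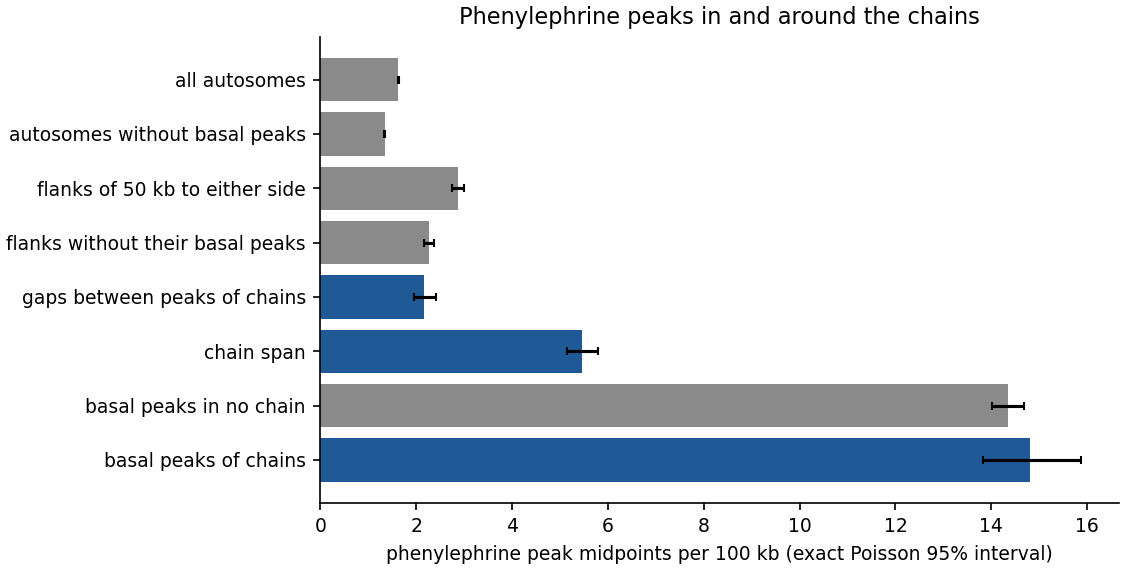
Phenylephrine peak midpoints per 100 kb (x axis, exact Poisson 95% intervals) in parts of the chains (blue) and in other sequence (grey). Gaps between peaks of chains, at 2.17, stand beside the flanks without their basal peaks, at 2.27, and basal peaks of chains, at 14.8, beside basal peaks in no chain, at 14.3.

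By length, phenylephrine peaks covered 0.925 Mb of the 21.3 Mb of chain span, 4.35%, against 1.03% of all autosomes. Spans are built from basal peaks, which alone raises their cover. Phenylephrine peaks covered 12.4% of the basal peaks of chains and 11.3% of the basal peaks in no chain. They covered 1.51% of the gaps between peaks of chains and 1.47% of the flanks without their basal peaks. Of the autosomes without basal peaks they covered 0.803%. The median chain had 3.51% of its span covered. The basal list covered 26.1% of the same spans, with peaks that are broader than those of the phenylephrine list.

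The phenylephrine list formed fewer chains of its own. By the same rule it had 307 chains with 1328 peaks, 3.20% of its autosomal peaks, and the longest held 8 peaks. Gaps run from edge to edge, and phenylephrine peaks were narrower. Their median width was 671 bp in the spans and 583 bp outside, against 1214 and 1104 bp for basal peaks in and outside chains. With every peak set to 600 bp the basal list had 661 chains. The part of width and of the unknown depth in these numbers was not tested. A chain of phenylephrine peaks overlapped 41 of the 819 basal chains, 5.01% (3.71 to 6.72%). Seen from the other list, 42 of the 307 phenylephrine chains, 13.7% (10.3 to 18.0%), overlapped a basal chain. The share of basal chains that met one moved with the gap allowed, from 3.48% at 5 kb to 20.0% at 20 kb, and no background share was computed for it.

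The kept share showed no steady rise with length among chains of 4 to 7 peaks, and was higher in the 29 longer ones, a division at 8 peaks that was chosen after the values were seen. It was 21.6% (19.9 to 23.5%) in the 512 chains of 4 peaks and 20.8% (18.8 to 22.9%) in the 278 of 5 to 7, with 20.1% at 5 peaks, 24.2% at 6 and 16.5% at 7. In the chains of at least 8 peaks 33.2% (27.9 to 39.0%) were kept, 91 of 274, and in the 790 chains of 4 to 7 peaks together 21.3% (20.0 to 22.6%). Without the region of chromosome 16 the shares were 29.9% (24.4 to 36.1%) and 20.9% (19.6 to 22.3%). Without the 3 longest chains the share in long chains was 27.9% (22.5 to 34.1%), still above the 21.3% (20.0 to 22.6%) of the shorter chains. The ends of these intervals just overlap, which does not decide whether the shares differ. No interval was computed for this difference.

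By chromosome, the kept share of chain peaks ran from 15.1% on chromosome 5 to 33.3% on chromosome 16. It was above that of the other peaks of the same chromosome on 15 of the 20 autosomes. Only on chromosome 16 were the intervals apart, with 33.3% (27.7 to 39.5%) in chains and 21.5% (19.2 to 23.9%) outside. Chromosome 5 had the largest gap in the other direction, with 15.1% (11.2 to 20.1%) and 20.4% (18.9 to 22.0%).

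**Figure D4:**
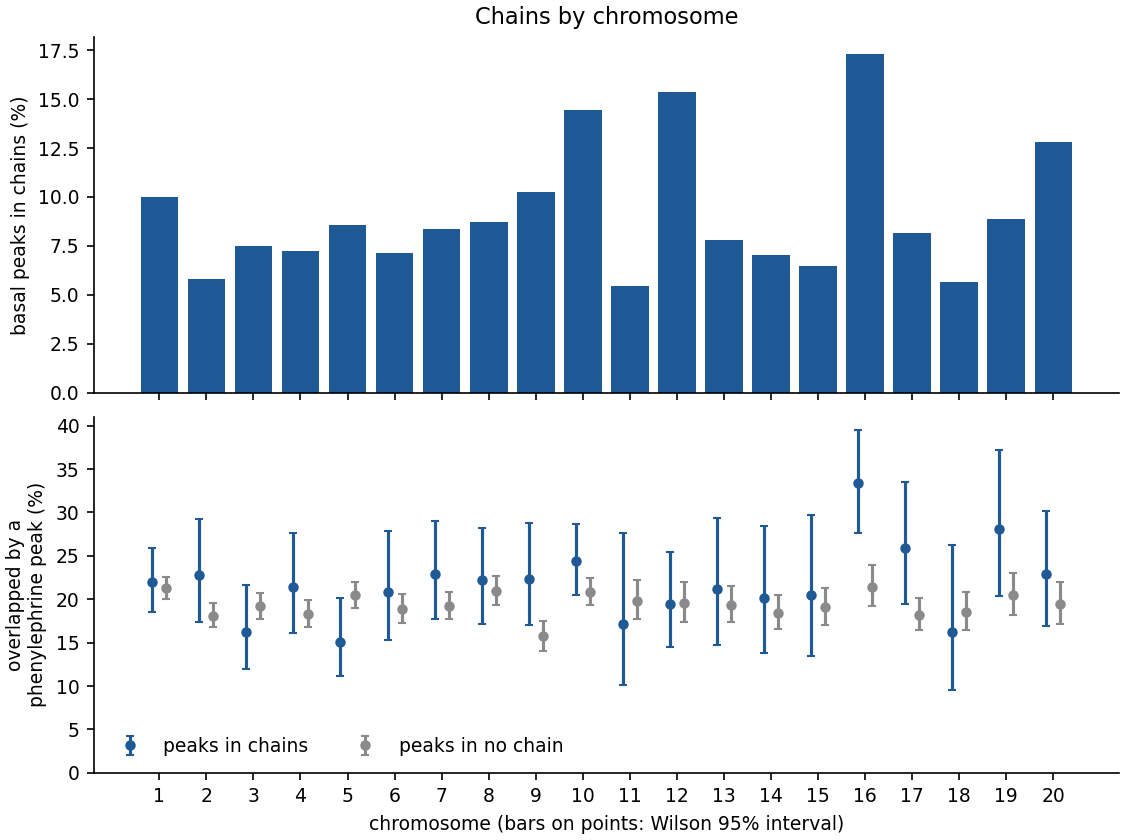
Upper panel: share of the basal peaks of each autosome that are in chains (percent). Lower panel: share of peaks in chains (blue) and in no chain (grey) overlapped by a phenylephrine peak, with Wilson 95% intervals. Chromosome 16 leads both panels, at 17.3% and 33.3%, and is the only one whose intervals lie apart. A single stretch holds 81 of its 240 chain peaks.

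The high share on chromosome 16 lay in 1 stretch of 1.19 Mb, picked out after its values were seen. Between 20448655 and 21639790 of that chromosome (build rn4) lay 11 chains with 81 peaks and only 25 other basal peaks. The scores there were high, with a median of 243 and 59 of 81 peaks at 100 or more, against 33.9% of all chain peaks. The stretch held 22 of the 425 peaks in the top 1% of scores. Of its chain peaks 43 were kept, 53.1% (42.3 to 63.6%). Of the 25 other peaks there 15 were kept, 60.0% (40.7 to 76.6%). The part of the higher scores in these shares was not tested. The stretch held 69 phenylephrine peaks with a median score of 106, and 63 of them overlapped a basal peak. Elsewhere on chromosome 16, 37 of 159 chain peaks were kept, 23.3%. Over all autosomes without the stretch 21.5% of chain peaks (20.2 to 22.8%) and 19.4% of the others were kept, a difference of 2.02 points (0.67 to 3.42).

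The chain with the most peaks lay at the end of that stretch, on chromosome 16 at 21567102 to 21639790. It had 18 peaks in 72.7 kb, with scores from 52.9 to 1179 and a median of 202, and 8 were kept. The strongest pair, at 1179 and 1070, were both kept, with partners that scored 123 and 196 in the phenylephrine list. The third strongest, at 741, was not. All 8 phenylephrine peaks of the span sat on a basal peak.

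A second chain of the stretch, on chromosome 16 at 20848153 to 20907774, had 13 peaks in 59.6 kb and kept 10. Its scores ran from 59.6 to 767. The kept peaks included the lowest as well as the highest, with partners at 59.1 and 241. The peaks not kept scored 87.4, 94.7 and 246.

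The widest chain, on chromosome 13 at 48740359 to 48845328, spanned 105 kb with 14 peaks of moderate score, from 57.2 to 165, and kept 9. It included a basal peak of 6274 bp with a score of 70.6, whose phenylephrine partner of 3141 bp scored 170 and ranked 286 in its list. Again all 9 phenylephrine peaks of the span sat on basal peaks.

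The opposite case was a chain on chromosome 9 at 1208702 to 1260773. It had 12 peaks in 52.1 kb, and the strongest scored 421, 358, 330 and 303. Only 1 was kept, a peak with a score of 79.5, and its partner was the only phenylephrine peak in the span. The chain of 11 peaks on chromosome 17 at 48869189 to 48923301 stood between these cases, with 5 peaks kept, 7 phenylephrine peaks in its 54.1 kb and scores from 50.6 to 276.

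**Figure D5:**
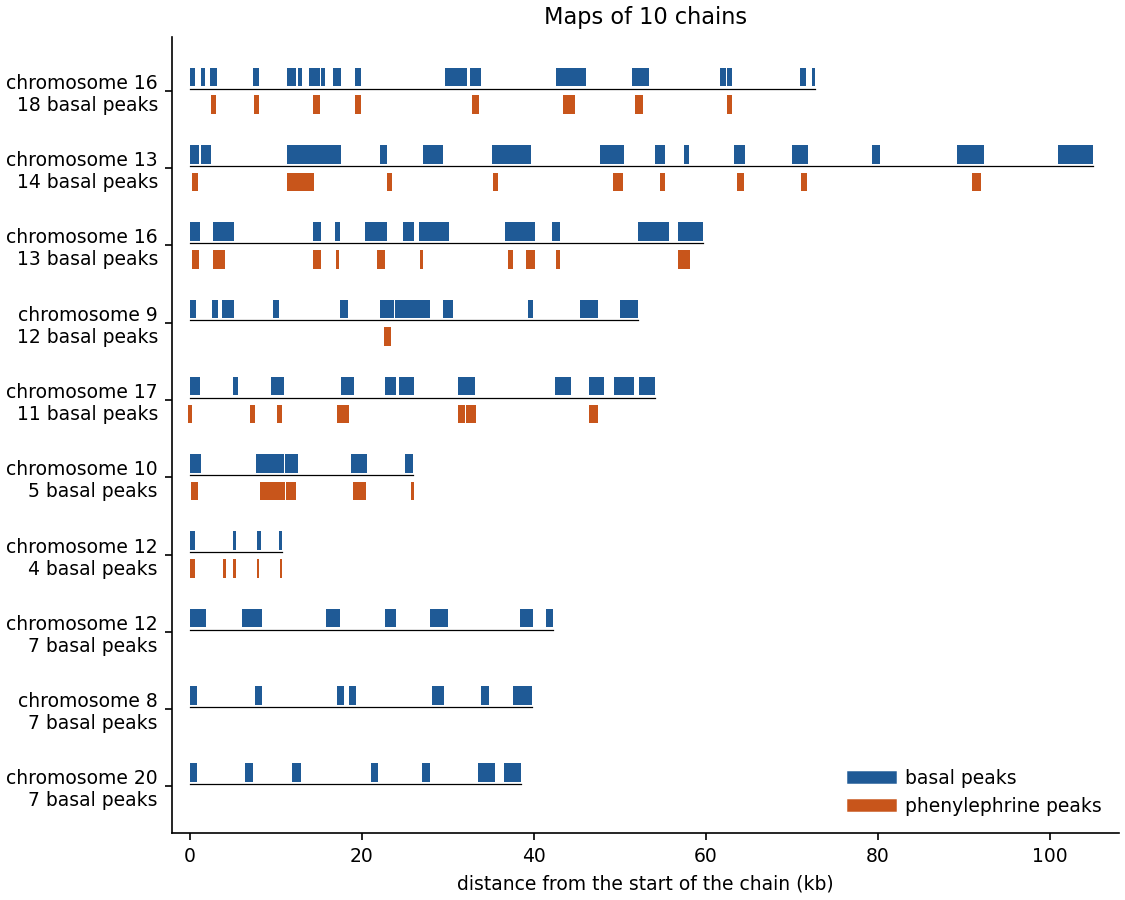
Maps of 10 chains, drawn to scale by distance from the start of the chain (x axis, kb), with basal peaks above the line (blue) and phenylephrine peaks below it (orange). From the top are the 5 chains with most peaks, the 2 with every peak kept and 3 with no phenylephrine peak in the span; the chain of 12 peaks on chromosome 9 has 1 phenylephrine peak.

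Other wide chains differed as much. On chromosome 10 at 109987182 to 110053936, 8 peaks spanned 66.8 kb and 4 were kept. On chromosome 5 at 160410812 to 160473357, 9 peaks spanned 62.5 kb and 2 were kept, while 5 phenylephrine peaks lay in the span. On chromosome 16 at 19236624 to 19298307, outside the dense stretch, 7 peaks spanned 61.7 kb and 1 was kept, the strongest, with a score of 149.

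Chains named for their summed scores each kept their strongest peak. The highest sum belonged to a chain of 6 peaks on chromosome 16 at 20546172 to 20587782, within the stretch. Its peaks at 2948, 1627, 1520 and 689 were kept and those at 115 and 83.1 were not. On chromosome 1 at 111375845 to 111397855, a chain of 4 peaks kept those at 2111, 2051 and 217 and not the one at 127. On chromosome 12 at 4404533 to 4417947, a chain of 4 kept its peak of 3100, with a partner at 601. Its neighbour at 873, which ranked 102 among all autosomal basal peaks, was not kept.

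Every peak was kept in 2 chains, of 5 and 4 peaks. On chromosome 10 at 106120248 to 106146199, 5 peaks in 26.0 kb scored 82.4, 376, 582, 155 and 75.0 in order along the chromosome. Their partners scored 117, 157, 580, 61.2 and 52.2, so the same middle peak led in both lists. Phenylephrine peaks covered 25.8% of this span. On chromosome 12 at 3109144 to 3119867, 4 narrow peaks of 338 to 648 bp scored from 523 to 1251, and another phenylephrine peak lay in a gap.

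Of the 202 chains with no phenylephrine peak, those with most peaks had 7. The first lay on chromosome 12 at 14326394 to 14368615. The others lay at 19885879 to 19925730 of chromosome 8 and at 7752497 to 7791049 of chromosome 20. Their scores were low to moderate, from 64.6 to 130 in the first, 63.6 to 208 in the second and 53.9 to 86.4 in the third.

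Of the chains not described so far, the one with most phenylephrine peaks had 6 in its span and several had 5, of which the 2 widest are given and 9 are not. On chromosome 19 at 24810695 to 24866918, 6 of 9 peaks were kept and phenylephrine peaks covered 15.9% of 56.2 kb. On chromosome 20 at 5205178 to 5265035, 4 of 8 were kept, and on chromosome 1 at 243603060 to 243664070, 2 of 8 were kept, each with 5 phenylephrine peaks in the span. In the chromosome 1 chain the strongest basal peaks, at 359, 284 and 247, were not kept, and those kept scored 146 and 76.1.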

How the data were processed

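Each of the 2 libraries has 1 deposited peak list. The submitters' processing notes name Bowtie 0.12.7, MACS 1.4.1 and build rn4. Per the file headers the lists are bedGraph tracks, and their score column holds the authors' score for each peak. The sources used here do not give its scale, the control, the calling threshold or the read depth, so scores rank peaks within 1 list only.

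Peaks on chromosomes 1 to 20 were chained as described, and overlaps, cover and midpoints were counted with Python 3.11.15, pandas 2.3.3, numpy 2.4.6 and scipy 1.17.1. Figures used matplotlib 3.10.9. The code was tested on simulated data, and chains, overlaps and cover were identical with bedtools 2.31.1. Printed starts have 1 added, and if the files already count from 1 they are 1 bp too high. Top 1% means autosomal basal peaks at or above the 99th percentile of score, which was 439. The length of an autosome was taken up to the end of its last peak in either list, with no sequence left out.

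The members, the groupings and the rule for naming chains were chosen with earlier results of these data known. Named are the 5 chains with most peaks, then 3 each by span, summed score, every peak kept (2 exist), no phenylephrine peak and most phenylephrine peaks. The only tables of genes at hand are of build GRCr8, so no gene or sequence is given for a chain.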

Additional observations from a re-analysis of the deposited data

How the results depend on the processing

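No paired analysis was possible because there is a single library for basal and for treated cells, and for the same reason no library could be left out. Under 15 alternatives the difference in kept share between chain peaks and the others was above 0 every time. Its interval included 0 with a gap of 5 kb and with fixed widths. The alternatives reuse the same 2 lists and set chain peaks against all peaks in no chain. Against peaks of the same 1 Mb bins the difference under the main rule was 0.29 points (-1.16 to 1.79). That comparison was not repeated under the alternatives. Both settings on chromosome 16 and their combination with the score were chosen after seeing the data. The cause of the shifts was not tested. Unknown depth limits every share: a peak absent from a list may lie under its threshold.

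With a gap of 5 kb there were 115 chains with 1.14% of peaks and a median span of 13.5 kb. Of these 55.7% kept a peak, phenylephrine peaks covered 5.90% of span at 7.25 per 100 kb, and 3.48% met a phenylephrine chain. With 20 kb there were 2538 chains with 32.6% of peaks and a span of 42.8 kb. Other peaks were kept in 18.8%, cover was 3.26%, density 4.31, and 20.0% met a phenylephrine chain. With at least 3 peaks there were 2401 chains, 20.2% of peaks and 17.2 kb, 53.4% kept a peak and 9.37% met a phenylephrine chain. With at least 5 peaks the values were 307, 4.20%, 32.3 kb, 70.4% and 2.28%.

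With 50% of both peaks overlapping, 9.55% of chain peaks and 8.05% of others were kept, and 34.1% of chains kept a peak. Within 1 kb these were 28.1%, 24.2% and 70.8%. With scores of at least 100 in both lists there were 46 chains with 1.52% of peaks. The kept shares were 27.3% and 9.86%, the difference 17.4 points, 56.5% of chains kept a peak and cover was 5.73%. Without the dense stretch of chromosome 16 there were 36 such chains, 9.81% of other peaks were kept and the difference was 12.3 points. With that score for the phenylephrine list only, the values were 5.14%, 3.88%, 1.26 points and 17.8%, cover was 1.11%, density 0.977 per 100 kb, and 0.244% met a phenylephrine chain.

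With widths of 600 bp, chains held 7.16% of peaks over 21.9 kb. The kept shares were 17.5% and 16.4%, the difference 1.10 points, 55.1% of chains kept a peak and cover was 3.17%. Merging peaks within 1 kb gave 7.48%, 26.2 kb and 19.9% of others kept. Without the widest 1%, chains held 8.53% of peaks, 20.2% and 18.5% were kept and cover was 3.77%. Without chromosome 16 chains held 8.74% of peaks.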

Other observations

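Chains were also present outside the autosomes. By the same rule chromosome X had 5 chains with 30 of its 372 basal peaks, and 7 of these 30 were kept, 23.3% (Wilson 95% interval 11.8 to 40.9%), against 24.3% (20.0 to 29.1%) of its other peaks. In unplaced sequence 29 chains held 174 of 866 basal peaks, 20.1%, and the longest had 20 peaks. There 76 of the 174 chain peaks were kept, 43.7% (36.5 to 51.1%), against 142 of 692 others, 20.5% (17.7 to 23.7%). Neighbouring positions in unplaced sequence need not be neighbours on a chromosome.

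Chains themselves lay close together in places. Of the 1 Mb bins with the midpoint of at least 1 chain, 363 had 1 chain, 107 had 2 and 3 had 6. Those with 6 were on chromosome 16 at 21000001 to 22000000, chromosome 7 at 10000001 to 11000000 and chromosome 10 at 90000001 to 91000000. In these, 18 of 43 (41.9%), 10 of 31 (32.3%) and 5 of 31 (16.1%) chain peaks were kept. Over all autosomes 22.1% of chain peaks and 19.7% of basal peaks were kept. The counts per bin are small, and no intervals were computed for them. The chains of the chromosome 16 bin belong to the stretch described above. On chromosome 12 the bin at 34000001 to 35000000 had 4 chains with 19 peaks, of which 1 was kept, and on chromosome 20 the bin at 5000001 to 6000000 had 4 chains with 23 peaks, of which 11 were kept. These bins were chosen after their values were seen.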
